A study of Homo sapiens with 6 samples.

Results

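The genes described here are those that encode collagen alpha chains, chosen by gene symbol alone (COL, a type number, A and a chain number). The deposited count table holds 31 of them among 21503 genes: 9 chains of fibrillar collagens, 4 of basement membrane collagen (type IV), 4 of type VI collagen and 14 of other types. The RNA came from UMUC3, a human bladder carcinoma line, 14 days after its cells were placed orthotopically in the bladders of C57 nude mice. Control UMUC3 cells gave 3 libraries and UMUC3 cells with GANAB knock down gave 3 libraries, and mice of both groups were kept under normal conditions. GANAB encodes the catalytic subunit of glucosidase II, which trims glucose from new N-glycans in the endoplasmic reticulum. No source used here gives how the knockdown was made, whether the cells were a clone or a pool, or whether libraries of a group came from separate mice, so p-values measure only the spread between these libraries, which may be technical. Nude mice lack mature T cells but keep stromal, vascular and other immune cells, and the tumour RNA may include RNA of the host.

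Collagens are the main structural proteins of the extracellular matrix. Each chain carries long stretches in which glycine returns at regular intervals, which lets the chains wind around one another into a helix. Fibrillar collagens form the fibres of connective tissue, type IV forms the sheet under epithelia and around vessels, and type VI forms beaded filaments close to cells. Many collagen chains and their processing enzymes carry N-glycans and are folded in the compartment where GANAB acts. In bladder tumours most fibrillar collagen is usually made by stromal fibroblasts and smooth muscle cells, though tumour cells of mesenchymal character make collagens too.

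Values for a gene across libraries are CPM, estimated counts scaled to 1 common library size by the TMM method, and values that compare genes with one another are the deposited TPM, which also allow for transcript length. Each ± is an SD over 3 libraries. Library totals ran from 11737837 to 40039584 estimated counts, so a single count was worth 0.0236 to 0.0823 CPM. GANAB itself stood at 661 to 825 CPM in control and 231 to 238 CPM under knockdown. The control libraries lay further apart (biological coefficient of variation 53.4%) than the knockdown libraries (10.7%). Control library 1 stood apart from all others in that 29.2% of its counts were mitochondrial ribosomal RNA, against 0.928% to 2.43% in the other 5, and 30.1% of its TPM, which lowers the TPM of its other genes. Of 10 urothelial markers 7 were tested and 1, UPK1A, rose, from 0.158 to 0.741 CPM in control to 3.37 to 4.50 CPM under knockdown. The urothelial list summed to 26.4 to 56.3 TPM in control and 36.4 to 43.3 TPM under knockdown, of which KRT7 made up 11.3 to 43.5 and 14.8 to 16.3 TPM, while UPK3A and KRT20 were listed at 0 TPM in all libraries. Of 4 mesenchymal genes 1 rose and 1 fell, and their sum was 1208 to 2641 TPM in control and 4305 to 4384 TPM under knockdown. VIM made up 1147 to 2550 TPM of this sum in control and 4214 to 4277 TPM under knockdown. VIM rose, from 2193 to 3376 CPM in control to 5501 to 5656 CPM under knockdown, and CDH2 fell, from 48.7, 2.79 and 81.9 CPM in control to 1.27 to 1.83 CPM under knockdown.

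In the knockdown libraries 7 collagen genes were higher and 1 was lower. COL27A1 and COL5A1 of the fibrillar class, COL6A1 and COL6A2 of type VI, the anchoring fibril gene COL7A1, the transmembrane collagen gene COL23A1 and the barely detected COL15A1 rose, and COL6A3 of type VI fell. Of the 31 genes, 29 passed the filter on low counts and were tested, and 27.6% of these 29 passed at an adjusted p under 0.05 (edgeR quasi-likelihood test, adjusted over 19430 genes), against 8.31% of all genes tested (4.59% higher and 3.72% lower). By class, 2 of 8 tested fibrillar genes, 0 of 4 type IV genes, 3 of 4 type VI genes and 3 of 13 others passed. The median log2 fold change was 0.73 over the 29 collagen genes and 0.03 over all genes tested, and 22 of the 29 had a positive value against 52.1% of all genes. All 3 knockdown values lay above all 3 control values in 12 of the 29 genes and below them in 1, against 21.9% and 15.7% of all genes tested (37.6% in either direction). COL2A1 and COL25A1 did not pass the filter. A low gene can pass the filter through the group in which it is high, so these counts describe the tested genes and not all collagens.

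**Figure D1:**
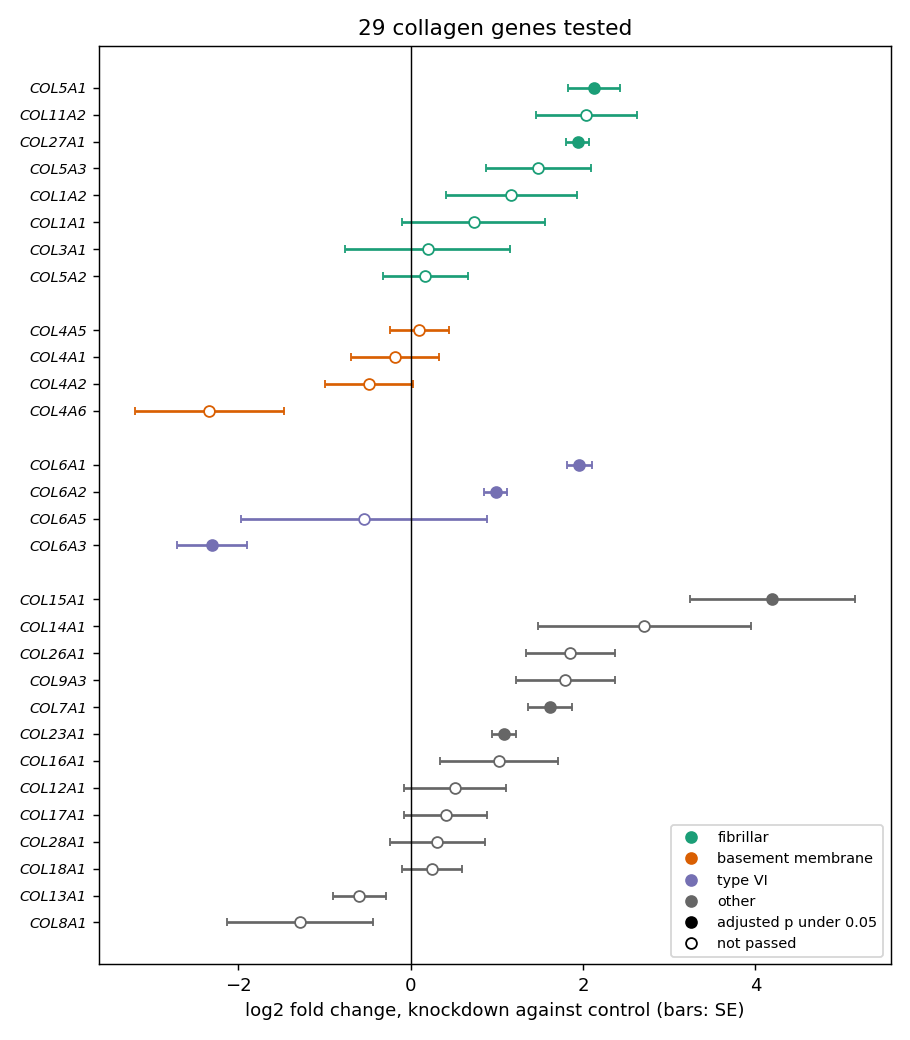
Log2 fold change of knockdown against control for the 29 tested collagen genes, grouped by class, with bars of 1 SE on each side (x axis, log2 units); filled points passed at an adjusted p under 0.05. Type IV genes lie at or below 0.10, and COL6A3, at -2.31, lies apart from COL6A1 at 1.96 and COL6A2 at 0.99.

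Upstream sequence was available in RefSeq (GRCh38.p14) for 21 of the 31 genes, and is shown for the genes that rose where it could be read clear of annotated exons. COL6A1 has no entry there. Each sequence runs 5′ to 3′ on the gene's strand and ends at or before the listed start, with GGGCGG, the core of sites bound by Sp1 family factors, in capitals on either strand (CCGCCC when read from the other strand). The positions are chr9:114155287-114155536 for COL27A1, chr9:134641553-134641773 for COL5A1, chr21:46097862-46098096 for COL6A2, chr3:48595330-48595579 for COL7A1 (minus strand) and chr5:178590556-178590643 for COL23A1 (minus strand).
COL27A1: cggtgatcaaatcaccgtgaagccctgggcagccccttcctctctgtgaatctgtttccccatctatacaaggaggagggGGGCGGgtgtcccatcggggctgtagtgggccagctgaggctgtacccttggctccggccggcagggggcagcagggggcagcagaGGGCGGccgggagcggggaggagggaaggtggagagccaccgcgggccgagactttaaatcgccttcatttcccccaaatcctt
COL5A1: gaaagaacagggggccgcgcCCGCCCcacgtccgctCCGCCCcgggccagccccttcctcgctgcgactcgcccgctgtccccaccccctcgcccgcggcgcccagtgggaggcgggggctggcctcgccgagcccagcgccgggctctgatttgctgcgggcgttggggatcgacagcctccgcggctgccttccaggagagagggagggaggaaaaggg
COL6A2: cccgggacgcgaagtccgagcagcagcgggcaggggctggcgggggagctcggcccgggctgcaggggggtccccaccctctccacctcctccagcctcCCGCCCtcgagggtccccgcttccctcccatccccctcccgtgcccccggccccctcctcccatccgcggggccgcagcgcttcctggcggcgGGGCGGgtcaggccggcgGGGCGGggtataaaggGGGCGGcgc
COL7A1: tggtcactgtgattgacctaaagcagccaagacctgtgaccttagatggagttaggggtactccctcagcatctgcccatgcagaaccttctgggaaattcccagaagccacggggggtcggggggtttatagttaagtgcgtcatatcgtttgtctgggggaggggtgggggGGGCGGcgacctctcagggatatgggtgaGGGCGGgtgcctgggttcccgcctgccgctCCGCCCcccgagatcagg
COL23A1: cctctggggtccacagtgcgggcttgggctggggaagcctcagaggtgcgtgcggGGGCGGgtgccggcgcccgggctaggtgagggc

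These stretches hold 2 GGGCGG in COL27A1, 2 in COL5A1, 4 in COL6A2, 3 in COL7A1 and 1 in COL23A1, and none holds CCAAT. Stretches of 250 bases before a start held GGGCGG on either strand in 17 of 27 windows of the collagen genes and in 42.6% of 35116 windows of all genes, and CCAAT in 8 of 27 and in 32.0%. The window of COL6A3, the gene that fell, held neither motif, and nor did those of COL13A1 and COL26A1, which did not pass. GGGCGG also stood in windows of genes that did not pass, such as COL18A1 and COL12A1. Some genes had more than 1 window. A match is a description of letters and shows no binding.

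Among the fibrillar chains, COL27A1 rose most evenly. This gene (ENSG00000196739, chromosome 9, 114155560 to 114312511, plus strand, GRCh38 in GENCODE release 29) encodes the single chain of type XXVII collagen, a thin-fibril collagen best known from cartilage. COL27A1 stood at 45.5, 49.2 and 39.6 CPM in controls 1, 2 and 3 and at 167, 174 and 173 CPM in knockdowns 1, 2 and 3. The groups were far apart and each was tight, and COL27A1 rose 3.83-fold (log2 fold change 1.94, SE 0.136, edgeR adjusted p = 0.00124). COL5A1 (ENSG00000130635, chromosome 9, 134641774 to 134844843, plus strand) encodes the main chain of type V collagen, which starts and limits the growth of type I fibrils. COL5A1 was at 38.7, 55.8 and 22.5 CPM in control and 173, 164 and 173 CPM under knockdown. Even the highest control value was far below the knockdown values, and COL5A1 rose 4.36-fold (log2 fold change 2.12, SE 0.304, edgeR adjusted p = 0.0112). The loci of COL5A1 and COL23A1 also hold genes on the opposite strand, and no source used here gives the strand setting of the counting, so reads of such pairs cannot be told apart.

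The partner chain of COL5A1 did not pass. COL5A2, which joins COL5A1 in the common form of type V collagen, stood at 20.5, 6.41 and 5.43 CPM in control and 13.03, 13.7 and 10.01 CPM under knockdown. Its groups overlapped because control library 1 was the highest of all 6 (log2 fold change 0.17, SE 0.493, edgeR adjusted p = 0.871). With 1 library left out the value of COL5A2 ran from -0.19 to 1.01 (edgeR adjusted p of at least 0.066). Per length, the ratio of COL5A1 to COL5A2 TPM was 2.04 to 5.24 in control and 11.5 to 19.9 in knockdown libraries, without overlap. Because COL5A1 was singled out by its rise, this ratio is no separate evidence. COL5A3, which encodes a less common type V chain, was at 3.79, 0.578 and 4.03 CPM in control and 7.62, 8.10 and 7.63 CPM under knockdown. All its knockdown values were above the controls, but COL5A3 did not pass (log2 fold change 1.48, edgeR adjusted p = 0.176). It passed without control library 2, with a log2 fold change of 1.00 (edgeR adjusted p = 0.0139). COL11A2, a chain of the cartilage collagen of type XI, went the same way at low level, from 0.883, 2.26 and 5.51 CPM in control to 10.05, 11.9 and 12.6 CPM under knockdown (log2 fold change 2.04, edgeR adjusted p = 0.0740). COL11A2 passed without control library 3, with a log2 fold change of 2.84 (edgeR adjusted p = 0.0226), and with all libraries by DESeq2 (adjusted p = 0.00574). COL2A1, the cartilage collagen of type II, had 5, 0 and 0 counts in control and 14, 23 and 9 counts in knockdown libraries and was not tested.

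The classical interstitial collagens of types I and III did not pass, and their control libraries lay far apart. COL1A1 and COL1A2 encode the chains of type I collagen and COL3A1 that of type III. COL1A1 stood at 118, 9.15 and 15.5 CPM in controls 1, 2 and 3 and at 82.9, 76.3 and 79.2 CPM under knockdown. COL1A2 stood at 49.4, 3.63 and 12.4 CPM in control and 45.6, 52.1 and 50.7 CPM under knockdown. COL3A1 stood at 34.9, 0.841 and 6.91 CPM in control and 15.3, 17.4 and 16.7 CPM under knockdown. In each of these 3 genes control library 1 lay within or above the knockdown range, and control libraries 2 and 3 lay below it. None of the 3 passed (log2 fold changes 0.73, 1.17 and 0.20, edgeR adjusted p = 0.642, 0.386 and 0.926). Without control library 1, COL1A1 passed with a log2 fold change of 2.68 (edgeR adjusted p = 0.0128) and COL1A2 with 2.64 (edgeR adjusted p = 0.0410), while COL3A1 had a value of 2.12 and did not pass (edgeR adjusted p = 0.136). Without control library 2 or 3 the fold change of COL3A1 was negative. The chains of type I collagen kept no fixed proportion: the ratio of COL1A1 to COL1A2 TPM was 0.702, 1.47 and 0.432 in control and 0.493 to 0.665 in knockdown libraries.

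**Figure D2:**
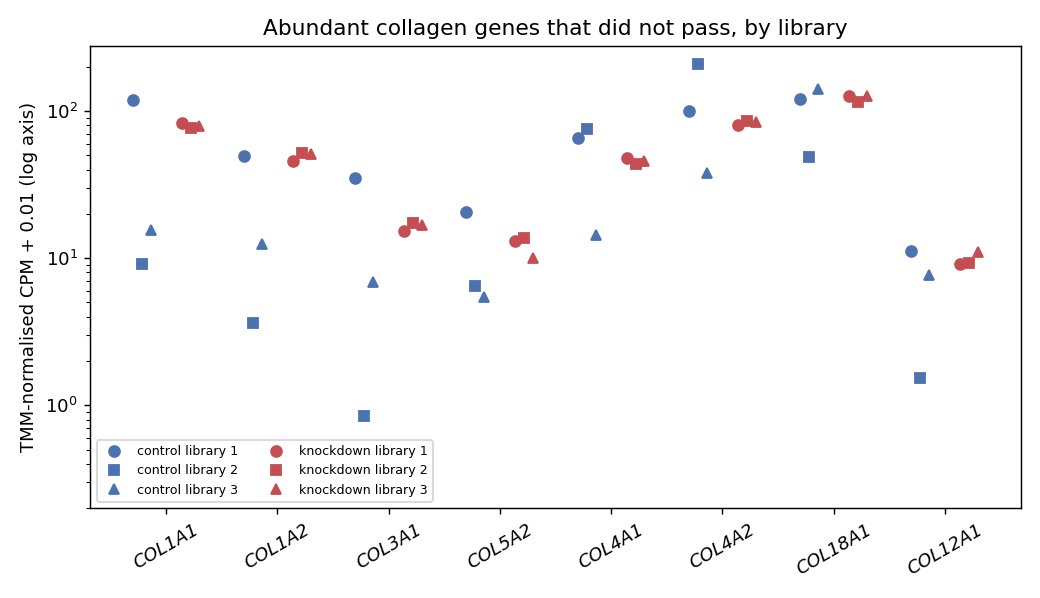
CPM (log axis, 0.01 added) of 8 abundant collagen genes that did not pass, with control libraries in blue and knockdown libraries in red. Control library 1 (blue circle) is the highest of the controls in COL1A1, COL1A2, COL3A1 and COL5A2, and control library 3 (blue triangle) is the lowest in COL4A1 and COL4A2.

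Type VI collagen showed chains moving in opposite directions. Its common form is built of the products of COL6A1, COL6A2 and COL6A3 in equal parts. COL6A1 (ENSG00000142156, chromosome 21, 45981737 to 46005050, plus strand) stood at 39.6, 30.6 and 38.1 CPM in control and 144, 138 and 139 CPM under knockdown. It rose 3.88-fold, with no overlap and little spread in either group (log2 fold change 1.96, SE 0.146, edgeR adjusted p = 0.00139). COL6A2 (ENSG00000142173, chromosome 21, 46098097 to 46132849, plus strand), its neighbour on the chromosome, stood at 101, 120.01 and 97.7 CPM in control and 208, 208 and 216 CPM under knockdown. COL6A2 rose 1.98-fold (log2 fold change 0.99, SE 0.134, edgeR adjusted p = 0.00932). COL6A3 (ENSG00000163359, chromosome 2, 237324003 to 237414375, minus strand), which encodes the longest of the chains, went down. It stood at 22.8, 66.3 and 67.9 CPM in control and 9.21, 9.88 and 12.5 CPM under knockdown. Control library 1 was the nearest to the knockdown values but still above them, and COL6A3 fell 4.96-fold (log2 fold change -2.31, SE 0.407, edgeR adjusted p = 0.0194). On the TPM scale COL6A3 did not pass in the 3 fits that used it (limma adjusted p = 0.105 to 0.261). None of these 3 genes overlaps another annotated gene.

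Per length, the balance of the type VI chains differed between the groups. The ratio of COL6A1 to COL6A3 TPM was 3.73, 0.895 and 1.13 in control and 32.1, 27.0 and 14.6 in knockdown libraries. The ratio of COL6A2 to COL6A1 TPM was 2.61 to 4.47 in control and 1.63 to 2.05 in knockdown libraries. Neither ratio overlapped between the groups. COL6A3 was the scarcest of these 3 chains in all 3 knockdown libraries and also in control libraries 1 and 3. COL6A1, COL6A2 and COL6A3 passed in these same libraries, so the ratios restate those calls per length and are no separate evidence. COL6A5, an alternative chain that can take the place of COL6A3, had 0 to 12 counts in control and 0 to 14 counts in knockdown libraries and did not pass (edgeR adjusted p = 0.859).

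**Figure D3:**
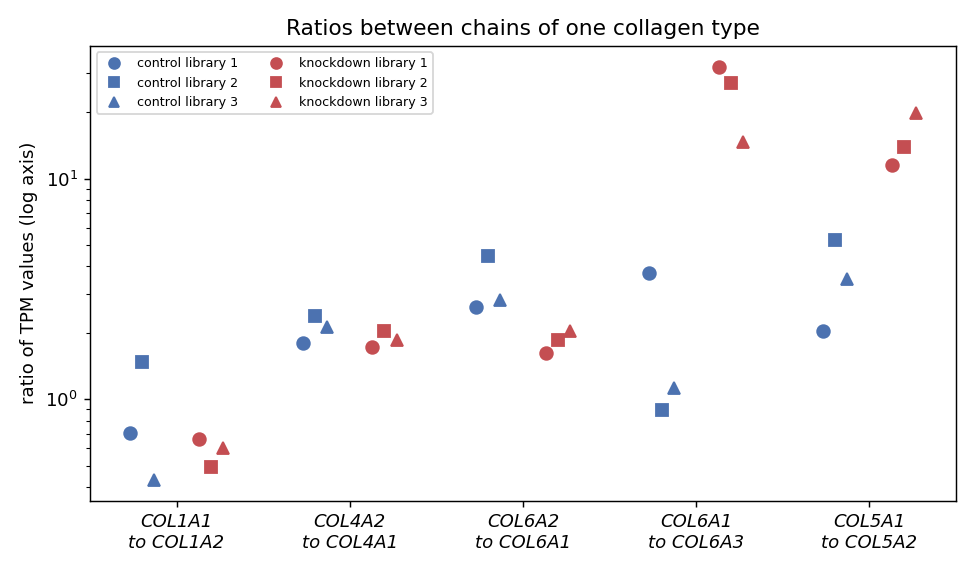
Ratio of the TPM of paired chains (log axis) for 5 pairs, with 1 point for each library. The ratio of COL4A2 to COL4A1 stays between 1.73 and 2.38 in all 6 libraries, while COL6A1 to COL6A3 and COL5A1 to COL5A2 separate control (blue) from knockdown (red).

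No type IV gene passed. COL4A1 and COL4A2 encode the chains of the basement membrane network found in nearly all tissues. COL4A2 stood at 101, 210.3 and 38.03 CPM in control and 80.2, 85.6 and 84.6 CPM under knockdown. COL4A1 stood at 66.0, 75.3 and 14.3 CPM in control and 48.1, 43.5 and 45.9 CPM under knockdown. For both genes the knockdown values fell inside the control range (log2 fold changes -0.48 and -0.18, edgeR adjusted p = 0.614 and 0.865). Without control library 3, the lowest, COL4A1 passed with a log2 fold change of -0.68 (edgeR adjusted p = 0.0359), and without control library 2 its value was 0.15. The ratio of COL4A2 to COL4A1 TPM varied far less than either gene, at 1.81, 2.38 and 2.12 in control and 1.73, 2.04 and 1.85 in knockdown libraries. These genes lie head to head on chromosome 13. RefSeq places the start of COL4A1 at 110307157 on the minus strand and that of COL4A2 at 110307284 on the plus strand (GRCh38.p14). The 126 bases between these starts were 80.2% G or C, with 1 GGGCGG and 1 CCAAT on either strand. GENCODE places the start of COL4A1 at 110307233, among these bases, and that of COL4A2 at 110305812, inside COL4A1.

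Neither gene of the X-linked pair of type IV passed in edgeR. COL4A5, mutated in Alport syndrome, stood at 21.9, 9.09 and 22.8 CPM in control and 16.7, 21.8 and 19.2 CPM under knockdown (log2 fold change 0.10, edgeR adjusted p = 0.892). COL4A6, its head-to-head neighbour, stood at 4.27, 2.10 and 0.494 CPM in control and 0.571, 0.637 and 0.165 CPM under knockdown. Control library 3 of COL4A6 lay within the knockdown values, and the gene did not pass (log2 fold change -2.34, edgeR adjusted p = 0.137). By DESeq2 COL4A6 was lower at an adjusted p of 0.0376, and by limma-voom with quality weights at 0.0388. The ratio of COL4A5 to COL4A6 TPM overlapped between the groups, at 4.15 to 170.3 in control and 43.7 to 155.9 under knockdown. RefSeq lists their nearest starts 379 bases apart, at 108439458 for COL4A6 and 108439838 for COL4A5. The remaining pair, COL4A3 and COL4A4, known from the kidney filter, appears in the TPM table only, with COL4A3 listed at 0 in all libraries and COL4A4 at no more than 0.00313 TPM.

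Of the other types, COL7A1 and COL23A1 rose. COL7A1 (ENSG00000114270, chromosome 3, 48564073 to 48595267, minus strand) encodes the chain of the anchoring fibrils that hold epithelia to the underlying matrix. COL7A1 stood at 3.94, 4.21 and 2.63 CPM in control and 11.2, 10.95 and 11.1 CPM under knockdown, a 3.07-fold rise (log2 fold change 1.62, SE 0.260, edgeR adjusted p = 0.0149). COL23A1 (ENSG00000050767, chromosome 5, 178237618 to 178590555, minus strand) encodes a membrane-spanning collagen. COL23A1 stood at 18.1, 20.8 and 19.2 CPM in control and 43.2, 39.01 and 40.1 CPM under knockdown, a 2.11-fold rise (log2 fold change 1.08, SE 0.140, edgeR adjusted p = 0.00825). Neither gene overlapped between the groups in CPM. On the TPM scale COL7A1 did not pass in any of the 3 fits (limma adjusted p = 0.123 to 0.256). The other transmembrane collagens did not pass. COL17A1, a hemidesmosome component, was at 4.01, 13.9 and 4.44 CPM in control and 8.34, 10.8 and 10.5 CPM under knockdown, and it passed only when control library 2, the highest, was left out (log2 fold change 1.23, edgeR adjusted p = 0.00675). COL13A1, found at cell-matrix junctions, was at 7.61, 8.46 and 4.77 CPM in control and 5.19, 4.94 and 3.72 CPM under knockdown (edgeR adjusted p = 0.277). COL25A1, a neuronal collagen, had no count in the controls and 6, 18 and 5 counts in knockdown libraries and was not tested.

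The multiplexins, collagens of basement membrane zones with endostatin-like ends, differed in abundance. COL18A1, the source of endostatin, was among the most abundant collagens, at 121, 48.7 and 141 CPM in control and 126, 116 and 127 CPM under knockdown (log2 fold change 0.24, edgeR adjusted p = 0.716). COL15A1 (ENSG00000204291, chromosome 9, 98943179 to 99070792, plus strand) had 4, 1 and 0 counts in control and 76, 24 and 86 counts in knockdown libraries. Its log2 fold change of 4.20 (SE 0.952, edgeR adjusted p = 0.0392) rests on 5 control counts and depends on the prior count of the fit. COL15A1 did not pass without control library 1 or 3 (log2 fold changes 5.39 and 3.75), nor without knockdown library 1, 2 or 3 (over these 5 fits, edgeR adjusted p = 0.0504 to 0.196). Its locus also holds an antisense gene.

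The fibril-associated and remaining collagens were low, and none of them passed in edgeR with all 6 libraries. COL12A1, which coats type I fibrils, was at 11.2, 1.52 and 7.74 CPM in control and 9.08 to 10.98 CPM under knockdown. COL16A1 was at 4.86, 3.42 and 0.412 CPM in control and 4.81 to 7.44 CPM under knockdown. COL9A3, a chain of cartilage type IX collagen, was at 0.405, 1.58 and 1.73 CPM in control and 3.04 to 4.89 CPM under knockdown, above all controls (edgeR adjusted p = 0.0975). COL26A1 went from 0.329 to 0.662 CPM in control to 1.58 to 2.23 CPM under knockdown, also without overlap (edgeR adjusted p = 0.0686). COL9A3 and COL26A1 passed without control library 2 (edgeR adjusted p = 0.0436 and 0.0487), and by DESeq2 with all libraries both were higher (adjusted p = 0.0209 and 0.0107). COL14A1 had 11, 0 and 0 counts in control and 17, 57 and 54 counts in knockdown libraries. COL8A1, a network collagen of vessel walls, was at 8.57, 0.789 and 1.48 CPM in control and 1.06 to 1.86 CPM under knockdown, so that control library 1 alone stood high. COL28A1 stayed under 1 CPM in every library. The 13 further collagen genes that appear in the TPM table only reached at most 0.287 TPM in any library.

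**Figure D4:**
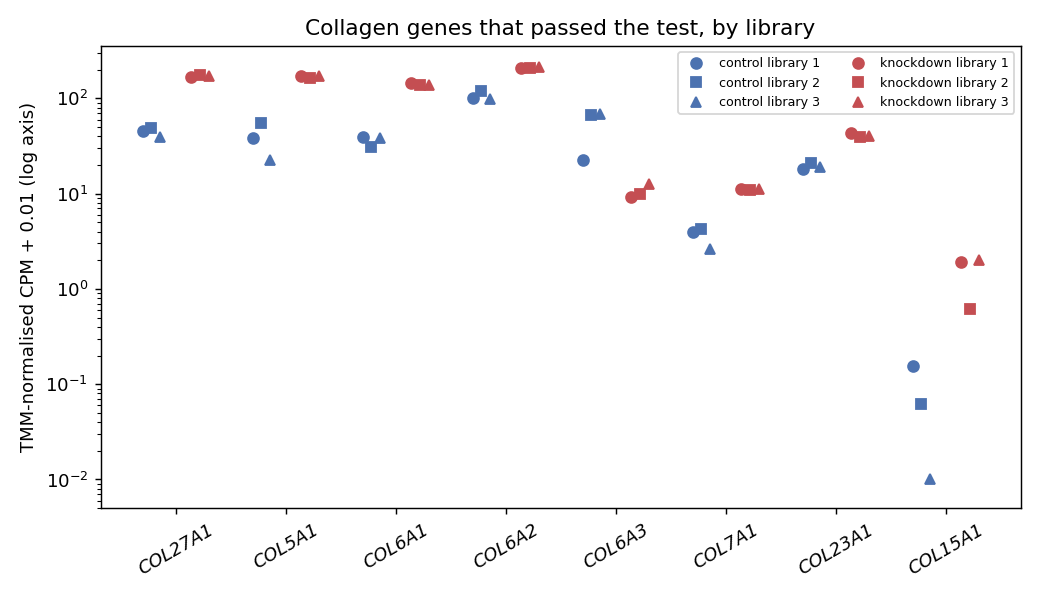
CPM (log axis, 0.01 added) of the 8 collagen genes that passed, with 1 point for each library. Knockdown libraries (red) lie above all controls (blue) in 7 genes and below them in COL6A3, and COL15A1 lies at or under 2.03 CPM throughout.

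Leaving out a library in turn, only COL27A1 and COL6A1 passed in all 6 fits (edgeR adjusted p = 4.23e-05 to 0.0210 and 3.16e-05 to 0.0231). COL5A1, COL6A2, COL6A3, COL7A1 and COL23A1 passed without any of the control libraries but not without knockdown library 1, 2 or 3 (edgeR adjusted p of at most 0.0785, 0.0933, 0.125, 0.115 and 0.0882 for the 5 genes). Their direction was the same in all these fits. Over the whole table the number of genes passing also fell, from 1614 to 62, 115 and 88 without knockdown library 1, 2 and 3. Without control library 2 it rose to 5604, and 11 collagen genes were then higher. That fit called 27.7% of all genes tested.

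Per length, collagen RNA in sum was higher in the knockdown libraries and its makeup differed. The 31 genes summed to 170.4, 242 and 211 TPM in control and 413, 432 and 424 TPM under knockdown. With mitochondrial ribosomal RNA left out of the TPM total, control libraries 1, 2 and 3 had 244, 244 and 213 TPM and knockdown libraries 423, 441 and 434 TPM. Fibrillar genes summed to 42.3 ± 16.5 TPM in control and 149 ± 9.81 TPM under knockdown, and type VI genes to 62.6 ± 17.6 and 149 ± 0.918 TPM. Type IV genes summed to 28.9 to 85.3 TPM in control and 41.3 to 43.9 TPM under knockdown, inside the control range. COL6A2 held the largest mean share of collagen TPM in both groups, 19.2% ± 2.25 in control and 22.3% ± 0.575 in knockdown libraries. COL18A1 (4.84% to 22.7%) and COL4A2 (4.99% to 23.3%) followed in control libraries. In knockdown libraries COL6A1 (12.2% ± 1.22), COL27A1 (9.43% ± 0.462) and COL5A1 (9.18% ± 0.555) did. Because COL27A1, COL5A1, COL6A1 and COL6A2 were singled out above, these sums in part restate their rise per length and are no separate evidence. The fibrillar sums also hold COL1A1 and COL1A2, which did not pass. COL1A1 was at 7.43 ± 6.87 TPM in control and 21.1 ± 0.993 TPM under knockdown, and COL1A2 at 10.5 ± 10.1 and 36.6 ± 6.94 TPM. In bulk RNA, fewer cells of a type and less RNA per cell cannot be told apart.

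**Figure D5:**
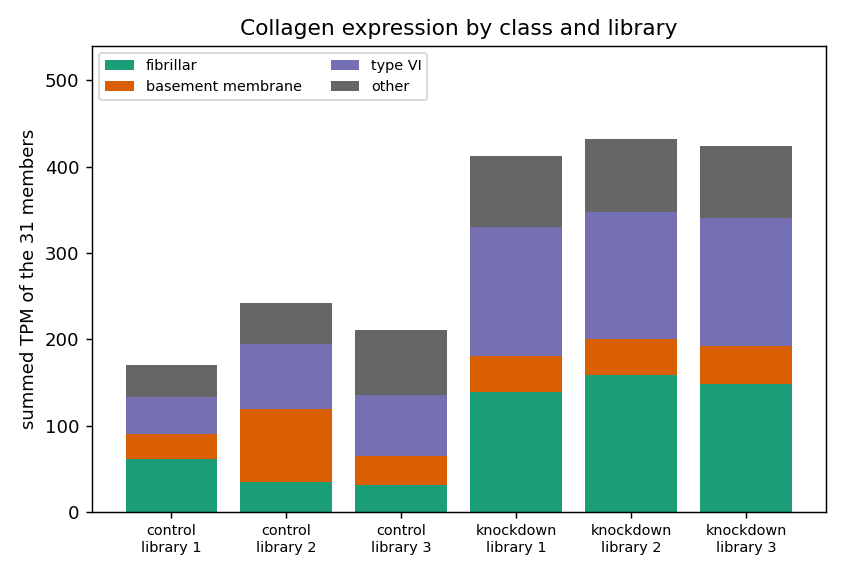
Summed TPM of the 31 collagen genes in each library, stacked by class. The knockdown bars reach 413 to 432 TPM and the control bars 170.4 to 242 TPM, with the difference in the fibrillar and type VI segments for the most part.

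Genes that act on collagen were read from a list of 77 genes, of which 72 were tested. Of these 7 rose and 5 fell, read against 8.31% of all genes tested in either direction, and their median log2 fold change was 0.35 against 0.03 over all genes. In folding and secretion, 1 of 22 rose and 2 fell. PLOD2, which hydroxylates lysines used in cross-links, fell 2.40-fold, with 170.4 ± 9.31 CPM in control and 70.9 ± 9.70 CPM under knockdown (edgeR adjusted p = 0.00566). P4HA1, a prolyl hydroxylase subunit needed for a stable helix, fell 3.01-fold, with 110.2 ± 54.5 CPM in control and 36.7 ± 2.21 CPM under knockdown (edgeR adjusted p = 0.0298), and the prolyl 3-hydroxylase gene P3H2 rose 1.98-fold. SERPINH1, the collagen-specific chaperone HSP47, was at 18.9, 2.68 and 5.10 CPM in control and 48.3 to 52.7 CPM under knockdown and did not pass (edgeR adjusted p = 0.0560). No gene of 11 that cleave propeptides or cross-link fibres passed in edgeR.

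Among matrix partners of collagen 3 of 19 rose and 1 fell. SPARC, a collagen-binding matricellular protein, rose 4.61-fold, with 179.8 ± 28.4 CPM in control and 829 ± 25.5 CPM under knockdown (edgeR adjusted p = 0.00132). HSPG2, the basement membrane proteoglycan perlecan, rose 3.52-fold and the laminin chain gene LAMB2 rose 1.94-fold, while LAMA1, named because it was the only one to fall, fell 3.10-fold. Of 14 receptors 3 rose and 1 fell. The collagen receptor kinase DDR2 rose 1.80-fold, with 29.9 ± 2.63 CPM in control and 54.0 ± 1.43 CPM under knockdown (edgeR adjusted p = 0.0141), the type VI-binding receptor gene ANTXR1 rose 1.78-fold, and the inhibitory leukocyte receptor gene LAIR1 fell 3.02-fold. DDR1 was the further receptor that rose, by 0.51 on the log2 scale. Of 6 collagen-degrading proteases tested, MMP14 fell 2.15-fold and no other passed.

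Markers of cells that could add host collagen were read beside these results. These counts are read against the 4.59% of all genes tested that were higher and the 3.72% that were lower. Of 8 fibroblast markers, 5 were tested and 1, PDGFRB, rose (log2 fold change 1.23, edgeR adjusted p = 0.0195). Their summed TPM was 30.6 to 113 in control and 54.6 to 58.6 in knockdown libraries. THY1 made up most of this sum, at 26.7 to 110.5 TPM in control and 46.9 to 51.9 TPM under knockdown. The sum therefore says little about the other fibroblast markers. LUM was listed at 0 in all libraries, and DCN stood at 0.147, 0 and 0 CPM in control and 0.236 to 0.458 CPM under knockdown. Of 8 smooth muscle markers 4 rose (MYH11, ACTA2, CNN1 and TAGLN), with summed TPM of 214 to 435 in control and 935 to 997 in knockdown libraries. None of 6 tested endothelial and 5 tested leukocyte markers passed in edgeR. Their sums were 7.71 to 45.9 and 55.7 to 210.4 TPM in control, and 8.97 to 12.2 and 46.6 to 50.3 TPM in knockdown libraries. A single gene carried most of each of these sums: TIE1 was at 7.06 to 45.5 TPM in control and 7.44 to 10.1 TPM under knockdown, and CD68 at 51.6 to 207 and 42.5 to 47.1 TPM. These sums therefore say little about the other endothelial and leukocyte markers. Of those, CDH5, KDR, TEK, VWF, PTPRC, CSF1R and ITGAM had positive log2 fold changes, and PECAM1 and LYZ had negative ones. Among controls, CPM of CD68, TIE1 and the fibroblast marker THY1 was highest in control library 2. COL1A1, COL1A2 and COL3A1 were highest in control library 1. So were the smooth muscle markers ACTA2, ACTG2, TAGLN, CNN1, DES, MYH11 and LMOD1, while MYLK was highest in control library 3. The other tested fibroblast, endothelial and leukocyte markers differed in which control was highest. The part of host cells and of mitochondrial ribosomal RNA in the collagen values was not tested.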

How the data were processed

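Bulk RNA-seq libraries were made from 200 ng of TRIzol-extracted total RNA, per the labels' protocols. The submitters' processing notes name Salmon, fastp, DESeq2 and the build GRCh38, and no source used here gives versions, the transcript index, the strand setting or any removal of mouse reads. The authors deposited estimated counts, whole as given and not normalized, for 21503 genes (each with at least 15 counts in total and counts in at least 3 libraries) and TPM for 60233. Reads of related chains are split by estimate, and mouse reads that resemble human transcripts could have been assigned to them. Group and number in the column names gave the samples; the tables abbreviate the knockdown as a knockout.

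The test was edgeR 4.0.16 (R 4.3.3), quasi-likelihood, on rounded estimated counts of all 6 libraries, with filterByExpr (19430 genes kept), TMM and Benjamini-Hochberg adjustment, 2-sided, no covariate. SE came from the fold change and the F statistic. Library depth, and the CPM that 1 count stands for, are given with the results. Alternatives used DESeq2 1.42.0 and limma 3.58.1 (voom; trend on log2 TPM with 1 or 0.1 added, at a mean TPM of 1 or more, or unfiltered), other scalings and filters, a replicate block, and each library left out. A fit without mitochondrial ribosomal RNA, and all alternatives for the pathway list, were chosen after seeing the data. The fit was also run on simulated counts with known fold changes. That simulation gave both groups the same spread for a gene, so it says nothing about the unequal spread of these libraries. Replicate libraries differed beyond sampling noise in every pair (chi-square per degree of freedom at least 6.07).

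Collagen genes that passed, the 3 most abundant of each class and the type IV genes were named by rule, with up to 3 passing genes of each pathway sub-list; LAMA1, DDR1 and other collagens were chosen after seeing their values. The genes and lists were chosen with earlier results of these data known. The value of 1 leukocyte marker is not reported here.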

Additional observations from a re-analysis of the deposited data

How the results depend on the processing

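With all 6 libraries and edgeR, 7 collagen genes were higher and 1 lower, 12 pathway genes changed and 1614 genes in all. DESeq2 size factors, upper-quartile scaling, no filter and leaving out mitochondrial ribosomal RNA kept the same 8 collagen genes. By DESeq2 10 were higher and 2 lower (22 pathway genes, 3655 in all). By limma-voom 7 were higher and 1 lower (17 and 2348), and with quality weights 7 and 2 (27 and 3716). COL4A6 was the second lower gene by DESeq2 and with quality weights. Both limma-voom fits lost COL15A1 (limma adjusted p = 0.0710 and 0.196) and gained COL11A2 (limma adjusted p = 0.0165 and 0.00538). On log2(TPM + 1) 5 collagen genes were higher and 0 lower, with 828 genes in all; on log2(TPM + 0.1) 4 and 0, with 526; on log2(TPM + 1) without a filter 1 and 0, with 1 pathway gene and 46 in all, at limma adjusted p under 0.05. The median of all genes was 0.23, 0.28 and 0.09 in these fits, against 0.03. Leaving out 1 library gave 2 to 11 collagen genes higher, 0 to 2 lower, 1 to 30 pathway genes and 62 to 5604 genes in all. The cause of these differences was not tested.

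With the replicate number as a block, 5 collagen genes were higher and 1 lower, 6 pathway genes changed and 566 genes in all; COL7A1 and COL15A1 were lost. Same-numbered libraries had deviations from their group means that correlated at 0.0022, 0.017 and 0.022. Each was the best match of its library, but all were small. The labels give a shared number and state no pairing, and these correlations cannot decide it.

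The sign turned for genes that did not pass: COL4A1 was 0.0062 with limma-voom, 0.077 with quality weights, 0.25, 0.29 and 0.25 on the TPM scales and 0.092 with the replicate block; COL4A2 was 0.072 with quality weights and 0.12, 0.14 and 0.12 on the TPM scales; COL4A5 was -0.11, -0.092, -0.068 and -0.092 in the same 4 fits. COL3A1 (-0.072) and COL5A2 (-0.17) turned with quality weights and COL28A1 (-0.063) on unfiltered TPM. With 1 library left out the log2 fold change ran from -0.089 to 0.48 for COL18A1, -0.38 to 2.12 for COL3A1, -0.68 to 0.15 for COL4A1, -0.95 to 0.25 for COL4A2, -0.21 to 0.26 for COL4A5, -0.19 to 1.01 for COL5A2, -1.33 to 0.26 for COL6A5 and -1.77 to 0.40 for COL8A1. Low counts limit what can be read from COL2A1, COL6A5, COL14A1, COL15A1 and COL25A1, which had 0 counts in at least 1 control library.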
